A study of Homo sapiens with 4 samples.

Results

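The set of 35 genes examined here covers the intrinsic antiviral and interferon-stimulated genes of human cells: the IFITM family, the type I interferon receptor and its transcription factors, sensors of viral RNA with their adaptor, and effectors such as the IFIT, OAS, MX and ISG15 groups. Members were chosen by gene symbol, with earlier results of these data known. Their symbols covered 579 of the 242542 annotated transcripts and 35 of 62218 genes. The libraries were Nanopore cDNA long-read libraries of total RNA from the H1 human embryonic stem cell line, wild type in both states. The 2 naïve replicates (FINE culture, harvested after 50% confluency) came from naïve hESCs that had been derived from H1 primed hESCs and kept in low oxygen with kinase inhibitors and LIF, and the 2 primed replicates were grown in mTeSR medium at normal oxygen to between 60 and 70% confluency. All 4 libraries thus come from 1 cell line, and pluripotent state, medium, oxygen and confluency cannot be told apart as the source of a difference. The labels do not say whether replicates were separate cultures, so the p-values measure only the spread between these libraries.

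Cells of most tissues answer viral RNA through sensors that switch on interferon genes; secreted interferon then binds its receptor, and the STAT and IRF9 complex drives the interferon-stimulated genes through a promoter element built on paired GAAA cores. Pluripotent stem cells are known to respond weakly to interferon and to carry a subset of these genes, among them IFITM genes, at a constant level without it. The comparison asks how the level of each antiviral gene differed between naïve and primed hESCs, for which the labels name neither a virus nor an interferon treatment.

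The number of alignments counted on transcripts ranged from 129276054 to 161548901 per library, and the gene-level total ranged from 23542387 to 30978752. A gene was represented by its transcript with the largest mean count, and levels are given as CPM, the count scaled to a common library size after TMM normalization. Naïve and primed identity was checked by markers: 8 of 8 naïve markers were lower and 8 of 8 primed markers were higher in primed hESCs. Of these, 1 naïve marker reached the test's minimum of 10 counts through the naïve libraries alone, and 4 primed markers through the primed ones alone. Such markers had to differ. The marker lists were chosen with earlier results of these data known, so this check is not independent of the data. Of 8 markers of pluripotency in general, 5 were higher in primed hESCs (SOX2 and LIN28A among them), 2 were lower (NANOG and LIN28B), and POU5F1 was not called (296.1 ± 47.2 CPM in naïve and 286.3 ± 12.2 CPM in primed, SD, n = 2). Of 10 trophoblast markers, 9 were lower in primed hESCs, and their summed level was 2138 and 2485 CPM in the naïve libraries against 7.54 and 7.36 CPM in the primed ones, most of it from CGA. KRT7 was the trophoblast marker that was not called, and 5 of the 9 lower ones reached that minimum through the naïve libraries alone. The part of trophoblast-like RNA in the naïve values below was not tested. Immune markers summed to between 8.62 and 8.70 CPM in naïve and between 25.9 and 27.7 CPM in primed libraries. Of 9, 1 was higher, 2 were lower, 1 was not called and 5 were not tested, and 3 had at most 3 counts in every library. CD74 (22 and 19 counts against 651 and 631) made up most of the primed sum, so the rise of that sum does not describe the list as a whole. Fibroblast and mesenchyme markers summed to 6.19 and 6.38 CPM in naïve and to 61.03 and 63.57 CPM in primed libraries; of 8, 4 were higher (COL1A1 and COL1A2 among them), 1 was lower (TWIST1), 1 was not called and 2 were not tested, and the defining markers DCN and LUM had at most 5 counts in any library. TWIST1 reached the minimum of 10 counts through the naïve libraries alone. Endothelial markers summed to 5.59 and 5.99 CPM in naïve and to 4.34 and 4.33 CPM in primed libraries. Of 6, 2 were higher, 1 was lower, 1 was not called and 2 were not tested. The 2 higher ones reached the minimum of 10 counts through the primed libraries alone, and the lower one through the naïve libraries alone. The part of the immune, fibroblast and endothelial markers in the results was not tested either. In bulk RNA, fewer cells with a transcript and less transcript per cell cannot be told apart.

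Of the 35 members, 27 had at least 10 counts in at least 2 libraries and entered edgeR's quasi-likelihood test, which was fitted on all 27633 genes that passed. At an adjusted p under 0.05, 8 members were higher in primed hESCs (IFNAR2, TLR3, EIF2AK2, ADAR, IFIT1, IFIT5, MX2 and BST2), 11 were lower (IFITM1, IFITM2, IFITM3, IRF9, IRF1, IRF7, OAS1, ISG15, IFI6, IFI27 and MX1) and 8 were not called. The states differed broadly: 70.0% of all genes tested were called, 37.4% as higher and 32.6% as lower. The 19 members called were therefore close to what the whole table gives. With a fold change beyond 2 as well, 16 members were called, 7 higher and 9 lower, where 47.1% of all genes tested passed. The median log2 fold change, primed over naïve, was 0.01 over the members tested and 0.08 over all genes tested. TLR3 and MX2 passed the count minimum through the primed libraries alone and OAS1 through the naïve libraries alone, so these had to differ. The remaining 24 split into 6 higher, 10 lower and 8 not called. Scaling by library size in place of TMM shifted the median of all genes to 0.72 and the split of the members to 13 higher and 7 lower.

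**Figure D1:**
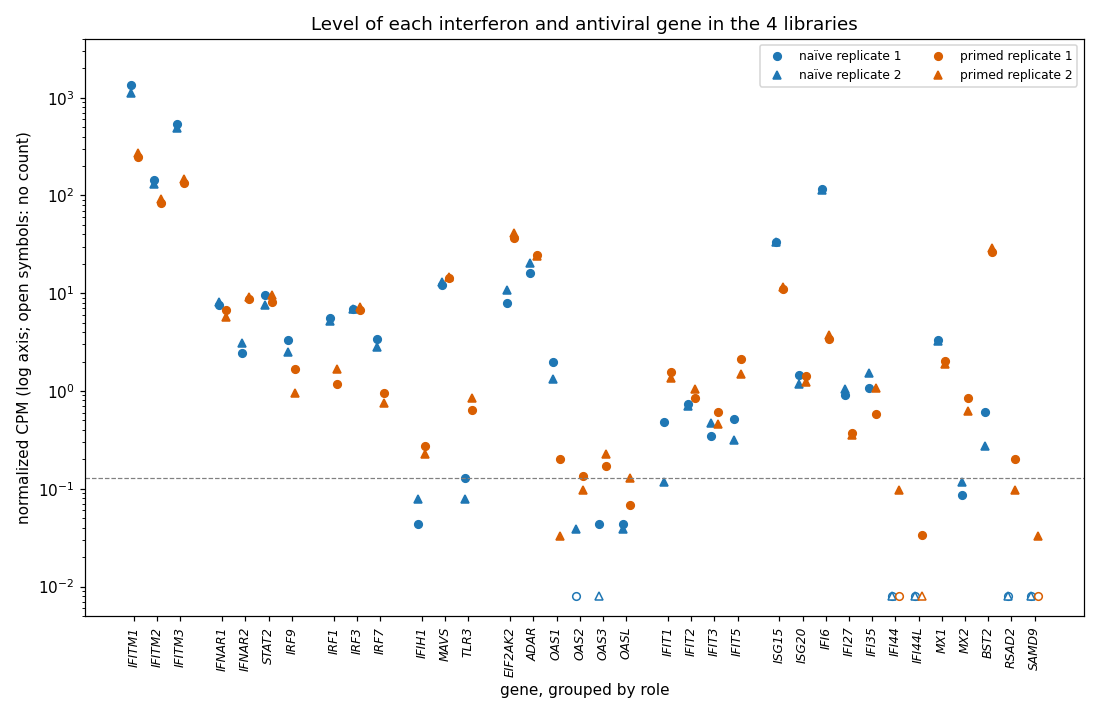
Normalized CPM (log axis) of the 35 members in the 2 naïve (blue) and 2 primed (orange) libraries, with circles for replicate 1, triangles for replicate 2, open symbols at the bottom for a count of 0 and a dashed line at the highest per-library floor of 3 counts (0.13 CPM). IFITM1 and IFITM3 sit at the top in both states, BST2 and IFI6 show the widest gaps in opposite directions, and most OAS and IFI44 family values lie near or below the line.

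The promoters of the members were searched for the paired GAAA cores described above. Many members were chosen as interferon-stimulated genes, so a high share with the motif follows in part from that choice. RefSeq promoter windows (GRCh38.p14, 250 bases before to 50 bases after a start) were found for 27 of the 35 members and searched on both strands for GAAANNGAAA, the paired core of the interferon-stimulated response element; overlapping matches were counted separately. The motif was present in a window of 19 of these 27 members, against 3.57% of all 35116 windows and 4.38% of 27305 genes. It was present both in members that rose and in members that fell: in 5 of 6 higher members with a window (not in ADAR), in 6 of 9 lower members (not in IRF1, IRF9 or OAS1), in 2 of 6 that were not called (IFIT3 and ISG20) and in 6 of 6 with too few counts to test. A match describes letters in this window and is not a measured binding site.

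Sequences around the motif are shown for 3 members that were lower in primed hESCs and for 2 that were higher, because members with opposite changes carry the same paired core. Capitals mark each match, including matches on the opposite strand, and each sequence is written 5′ to 3′ on the strand of its gene. The stretch of ISG15, the ubiquitin-like modifier, lies on the plus strand at chr1:1013364-1013419. That of IFI6, an antiviral protein of organelle membranes, lies on the minus strand at chr1:27672256-27672368. That of IFITM3, a restriction factor of endosomal membranes, lies on the minus strand at chr11:320866-320932. The stretch of BST2, or tetherin, which holds budding virions at the cell surface, lies on the minus strand at chr19:17405738-17405767, and that of IFIT1, which binds viral RNA lacking a methylated cap, on the plus strand at chr10:89392504-89392532.
ISG15 (lower in primed): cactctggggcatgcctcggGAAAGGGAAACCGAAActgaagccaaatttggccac
IFI6 (lower in primed): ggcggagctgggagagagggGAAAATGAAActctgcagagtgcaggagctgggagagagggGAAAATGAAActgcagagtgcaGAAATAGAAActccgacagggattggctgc
IFITM3 (lower in primed): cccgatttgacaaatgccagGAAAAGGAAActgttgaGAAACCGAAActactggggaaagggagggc
BST2 (higher in primed): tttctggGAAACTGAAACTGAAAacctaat
IFIT1 (higher in primed): tagTTTCACTTTCcccTTTCGGTTTCcct
The first base of the motif lay 113 and 107 bases before the start in ISG15, 130 and 124 bases before it in BST2, and 156, 115 and 93 bases before it in IFI6. The matches of ISG15 and of BST2 overlap, so that 3 evenly spaced GAAA cores follow each other in both promoters.

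**Figure D2:**
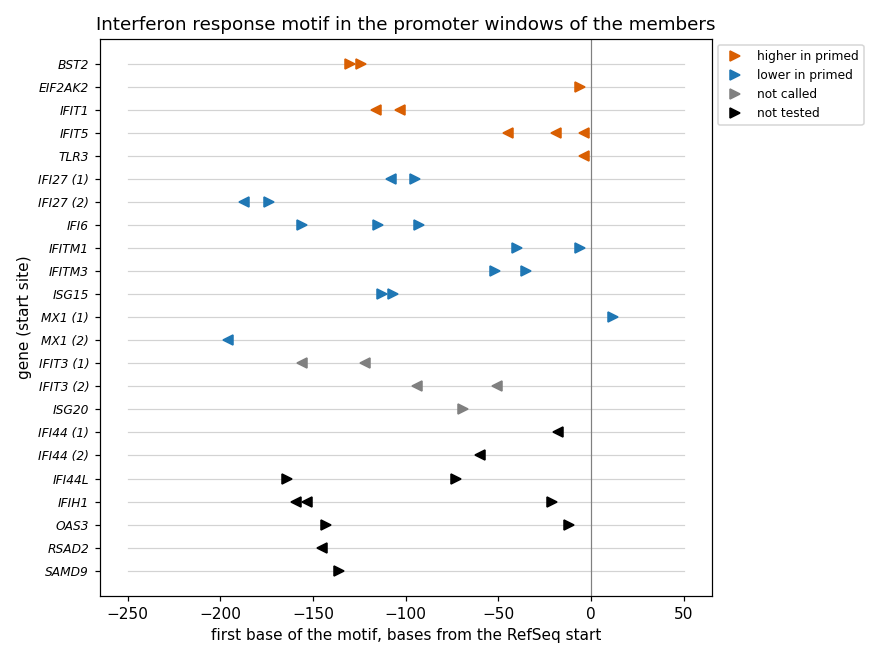
Position of the first base of each motif match, in bases from the RefSeq start (vertical line), in the promoter windows of the 19 members that hold one, with 1 row per start site; right-pointing triangles are on the gene strand and left-pointing ones on the opposite strand. Members higher (orange) and lower (blue) in primed hESCs both have most of their matches before the start, and so do the members not called or not tested.

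The IFITM genes encode small membrane proteins that hinder viral fusion, and they had the highest levels per exonic length of the set. IFITM1 stood at 1459 CPM per kb in naïve and 308.1 CPM per kb in primed hESCs, IFITM3 at 716.4 and 198.3, and IFITM2 at 137.2 and 88.1. All 3 were lower in primed hESCs, although IFITM2 was level under library size scaling (0.0011), and the change of IFITM2 was the smallest. IFITM1 (GRCh38 chr11:310041-315271) had 30787 and 28616 counts in the naïve replicates and 7221 and 8383 in the primed ones. The primed libraries were far below both naïve libraries, with 1227 ± 150.5 CPM in naïve and 259.1 ± 19.9 CPM in primed (SD, n = 2) and a log2 fold change of -2.24 ± 0.15 (SE; edgeR adjusted p = 1.86e-17). IFITM3 had 12350 and 12426 counts in naïve and 3955 and 4560 in primed, a log2 fold change of -1.85 ± 0.14 (edgeR adjusted p = 3.66e-15). IFITM2 had 3343 and 3351 counts in naïve and 2492 and 2846 in primed. Its log2 fold change of -0.64 ± 0.14 (edgeR adjusted p = 0.000126) was not called without primed replicate 1 (-0.41, edgeR adjusted p = 0.0557). Library size scaling left IFITM1 and IFITM3 lower, with IFITM1 at -1.60.

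The 3 IFITM genes are near copies that lie next to each other on chromosome 11, so their counts need care. The best match of an IFITM3 transcript to one of IFITM2 was 94.2% identical over 428 bases, and to the pseudogene IFITM3P2 it was 95.3% over 402 bases. IFITM3P2 itself had 268 and 321 counts in naïve and 65 and 104 in primed. Reads could thus be split between copies, and the counting allowed an alignment at several places. The IFITM1 and IFITM2 spans both overlap a read-through gene (ENSG00000288681; 33884 and 31705 counts in naïve, 9672 and 11116 in primed), and the IFITM3 span overlaps an antisense gene (ENSG00000251661; 12353 and 12428 against 3957 and 4559). The counts took no account of strand, so IFITM3 and its antisense partner cannot be told apart.

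Among the receptor and its signalling partners, IFNAR2 rose and IRF9 fell in primed hESCs, while IFNAR1 and STAT2 were not called. IFNAR1 and IFNAR2 form the receptor that all type I interferons bind. IFNAR2 had 56 and 80 counts in naïve and 260 and 281 in primed, with both primed libraries above both naïve ones and a log2 fold change of 1.69 ± 0.21 (edgeR adjusted p = 1.91e-09). Its span is shared in part with the read-through gene IFNAR2-IL10RB (111 and 140 against 323 and 359 counts). IFNAR1 had 175 and 207 counts in naïve and 200 and 176 in primed; its log2 fold change was -0.33 ± 0.19 (edgeR adjusted p = 0.117) and 0.31 under library size scaling. STAT2 and IRF9 are parts of the complex that carries the interferon signal to the nucleus. STAT2 had 220 and 195 counts in naïve and 239 and 292 in primed, and its CPM values overlapped between states; a transcript that overlaps no other gene gave 0.54 (edgeR adjusted p = 0.0155). IRF9 had 77 and 64 counts in naïve and 50 and 29 in primed, a log2 fold change of -1.14 ± 0.29 (edgeR adjusted p = 0.000608). The call of IRF9 was lost without primed replicate 2 (-0.61, edgeR adjusted p = 0.131) and under library size scaling (-0.50), and the IRF9 span overlaps a read-through gene (ENSG00000259529) over 5188 bases.

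Of the interferon regulatory factors, IRF1 and IRF7 fell and IRF3 was not called. IRF3 is the factor that waits in the cytoplasm for sensor signals; it had 159 and 175 counts in naïve and 199 and 220 in primed, which overlapped after normalization (6.87 ± 0.02 and 6.96 ± 0.29 CPM, SD, n = 2). IRF7, which amplifies interferon production once induced, had 79 and 72 counts in naïve and 28 and 23 in primed. Its log2 fold change was -1.87 ± 0.30 (edgeR adjusted p = 4.31e-07), and its span overlaps no other annotated gene. IRF1, a factor that also sets basal antiviral expression, had 128 and 132 counts in naïve and 35 and 52 in primed, a log2 fold change of -1.89 ± 0.25 (edgeR adjusted p = 1.06e-08). The span of IRF1 overlaps the antisense gene IRF1-AS1 (144 and 138 counts in naïve, 41 and 55 in primed), so the reads of both genes cannot be told apart. It also lies within a protein-coding gene on the opposite strand (ENSG00000283782), which had 583 and 661 counts in naïve and 770 and 833 in primed. The part of that gene's reads in the IRF1 value was not tested.

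The sensors of double-stranded RNA were low in both states, with TLR3 higher in primed hESCs and IFIH1 not tested, and the adaptor MAVS was not called. TLR3, the endosomal sensor, had 3 and 2 counts in naïve and 19 and 26 in primed, a log2 fold change of 2.81 ± 0.57 (edgeR adjusted p = 3.53e-05). IFIH1, the cytoplasmic sensor MDA5, had 1 and 2 counts in naïve and 8 and 7 in primed, too few for the test. MAVS, the mitochondrial adaptor of the cytoplasmic sensors, had 279 and 333 counts in naïve and 427 and 447 in primed. Its log2 fold change of 0.21 ± 0.16 was not called (edgeR adjusted p = 0.246).

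The enzymes that act on double-stranded RNA moved apart: EIF2AK2 rose, OAS1 fell, and ADAR changed little. EIF2AK2 encodes the kinase PKR, which halts translation on binding double-stranded RNA. It had 182 and 278 counts in naïve and 1086 and 1268 in primed, with 9.39 ± 2.12 CPM in naïve and 39.1 ± 3.15 CPM in primed (SD, n = 2). The primed libraries were well above both naïve libraries (log2 fold change 2.05 ± 0.17, edgeR adjusted p = 1.53e-14), and the value was 1.96 on a transcript that overlaps no other gene. ADAR, which edits adenosines in double-stranded RNA and so keeps a cell's own RNA from being sensed, had 370 and 526 counts in naïve and 733 and 733 in primed. Its log2 fold change of 0.41 ± 0.16 (edgeR adjusted p = 0.019) was lost in 4 alternatives, among them DESeq2 (0.36, DESeq2 adjusted p = 0.0741) and leaving out naïve replicate 1 (0.18, edgeR adjusted p = 0.422). OAS1, which makes the second messenger that activates RNase L, had 46 and 34 counts in naïve and 6 and 1 in primed. Its log2 fold change was -3.78 ± 0.50 (edgeR adjusted p = 9.57e-09), and it ranged from -5.32 without primed replicate 1 to -2.83 without primed replicate 2. The other OAS genes had at most 7 counts in any library: OAS2 had 0 and 1 in naïve and 4 and 3 in primed. OAS3 had 1 and 0 in naïve and 5 and 7 in primed, and OASL 1 and 1 against 2 and 4. The OAS1, OAS2 and OAS3 spans overlap an antisense gene (ENSG00000257452; 48 and 39 counts in naïve, 17 and 17 in primed), which cannot be told apart from them.

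IFIT1 and IFIT5 of the IFIT family, tetratricopeptide proteins that bind viral RNA ends, rose in primed hESCs, and IFIT2 and IFIT3 were not called. IFIT5 had 12 and 8 counts in naïve and 62 and 46 in primed, a log2 fold change of 2.11 ± 0.38 (edgeR adjusted p = 4.88e-06), and its span overlaps no other gene. IFIT1 had 11 and 3 counts in naïve and 46 and 42 in primed, a log2 fold change of 2.32 ± 0.44 (edgeR adjusted p = 9.85e-06). The naïve replicates of IFIT1 differed from each other, and the value ranged from 1.55 without naïve replicate 2 to 3.53 without naïve replicate 1. IFIT3 had 8 and 12 counts in naïve and 18 and 14 in primed, a log2 fold change of 0.37 ± 0.45 (edgeR adjusted p = 0.473). IFIT1, IFIT2 and IFIT3 all lie within the span of LIPA, a lysosomal lipase gene on the opposite strand that had 50 and 47 counts in naïve and 438 and 381 in primed. The part of LIPA reads in their values was not tested.

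IFIT2 gave opposite values on different parts of its locus. The transcript with the largest mean count (IFIT2-203, chr10:89283694-89308900) had 17 and 18 counts in naïve and 25 and 32 in primed, a log2 fold change of 0.39 ± 0.37 (edgeR adjusted p = 0.346). The canonical transcript (IFIT2-201, chr10:89302046-89309271), which lacks the upstream stretch, had 16 and 14 counts in naïve and 3 and 3 in primed. On it the log2 fold change was -2.58 and was called. The upstream transcript IFIT2-215 (chr10:89283694-89292473) had 1 and 4 counts in naïve and 20 and 25 in primed. That stretch is shared with a noncoding gene (ENSG00000232110), whose counts were also 1 and 4 against 20 and 25. The counts of IFIT2-203 in naïve hESCs thus came mostly from the downstream span and those in primed hESCs mostly from the upstream stretch. Whether the upstream reads belong to IFIT2, to ENSG00000232110 or to LIPA was not tested. In the test of isoform usage (edgeR diffSpliceDGE, adjusted p under 0.05 and a change in isoform fraction beyond 0.1), 5 of 442 member isoforms tested were called, where 0.545% of all 159577 isoforms were. All 5 belonged to IFIT2: 2 that lie in the downstream span were lower and 3 that lie in the upstream stretch were higher in primed hESCs. IFIT2-204 fell from 23.9 ± 4.24% to 2.77 ± 0.46% of the gene (SD, n = 2; edgeR adjusted p = 0.00233), and IFIT2-215 went from 3.81 ± 3.02% to 20.4 ± 0.20% (edgeR adjusted p = 1.73e-05). With isoforms of identical counts collapsed to 1, 2 of 246 member isoforms were called against 924 of 120682 in all, and with isoform fractions computed without length none of the members' was. None of these calls was made when any 1 of the 4 libraries was left out, which in each case gave 0 member isoforms.

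**Figure D3:**
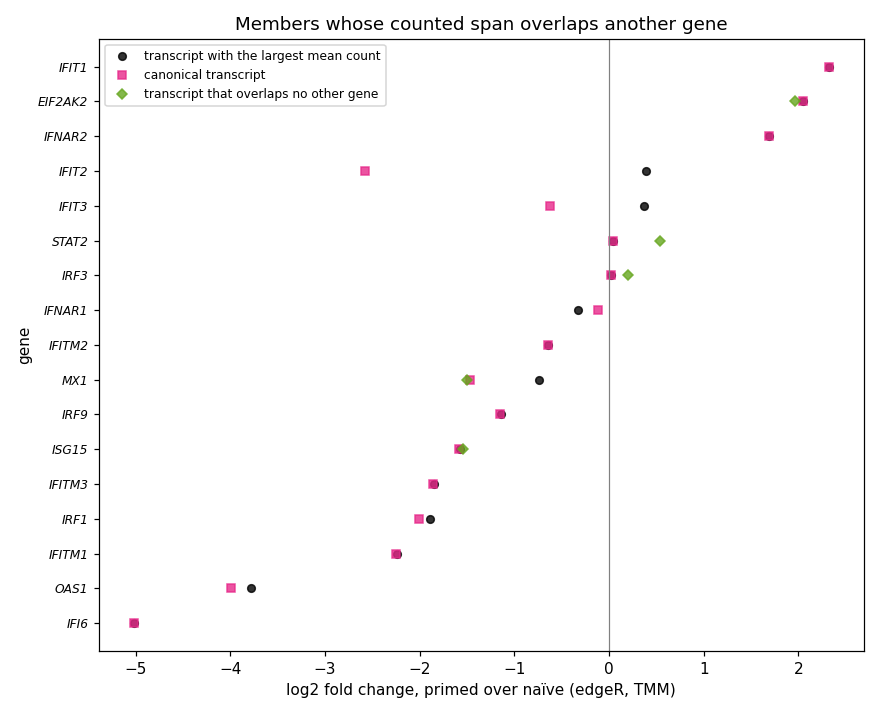
Log2 fold change, primed over naïve, of the members tested whose counted span overlaps another annotated gene, for 3 choices of the transcript that stands for the gene. Between the transcript with the largest mean count and the canonical one, IFIT2 and IFIT3 change sign, MX1 moves from -0.74 to -1.47, and most other members stay in place. Only STAT2, IRF3, EIF2AK2, ISG15 and MX1 have a value on a transcript that overlaps no other gene. On it STAT2 goes from 0.04 to 0.54 and MX1 to -1.50, and the others move less.

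The remaining interferon-stimulated genes held the widest differences of the set, IFI6 downwards and BST2 upwards in primed hESCs. IFI6 (IFI6-204, chr1:27666065-27672212) had 2718 and 2927 counts in naïve and 101 and 114 in primed. Its level was 116.2 ± 2.19 CPM in naïve and 3.57 ± 0.20 CPM in primed (SD, n = 2), 32.5-fold higher in naïve (log2 fold change -5.02 ± 0.18, edgeR adjusted p = 3.58e-27). The IFI6 span overlaps 2 other genes, among them ENSG00000225886 (2313 and 2471 counts in naïve, 99 and 113 in primed), whose reads cannot be told apart from those of IFI6. BST2 (BST2-201, chr19:17402939-17405630) had 14 and 7 counts in naïve and 786 and 895 in primed. Its level was 0.44 ± 0.24 CPM in naïve and 27.9 ± 1.76 CPM in primed (SD, n = 2), 63.8-fold higher in primed (log2 fold change 6.0 ± 0.25, edgeR adjusted p = 2.65e-24). The BST2 span overlaps no other gene, and the value was 6.59 without naïve replicate 1 and 5.46 without naïve replicate 2.

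ISG15, IFI27 and MX1 also fell, and MX2 rose. ISG15 had 779 and 851 counts in naïve and 324 and 356 in primed, a log2 fold change of -1.57 ± 0.16 (edgeR adjusted p = 5.96e-12). IFI27, a mitochondrial protein that is among the most strongly induced interferon targets, had 21 and 27 counts in naïve and 11 and 11 in primed. Its log2 fold change of -1.42 ± 0.41 (edgeR adjusted p = 0.00243) was lost under library size scaling (-0.79, edgeR adjusted p = 0.0867). MX1 and MX2 are dynamin-like GTPases that trap incoming viral cores, and they lie side by side on chromosome 21. MX2 had 2 and 3 counts in naïve and 25 and 19 in primed, a log2 fold change of 2.78 ± 0.57 (edgeR adjusted p = 4.25e-05). MX1 had 76 and 83 counts in naïve and 60 and 58 in primed, a log2 fold change of -0.74 ± 0.25 (edgeR adjusted p = 0.0093). The call of MX1 was lost without primed replicate 1 (-0.62, edgeR adjusted p = 0.102), without primed replicate 2 (-0.52, edgeR adjusted p = 0.171) and under library size scaling (-0.10, edgeR adjusted p = 0.731). The MX1 span overlaps TMPRSS2 on the opposite strand (30 and 27 counts in naïve, 61 and 57 in primed), and on a transcript that overlaps no other gene its log2 fold change was -1.50.

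ISG20 and IFI35 were not called, and IFI44, IFI44L, RSAD2 and SAMD9 were too low to test. ISG20, an RNA exonuclease, had 34 and 30 counts in naïve and 42 and 38 in primed, with CPM values that overlapped. IFI35 had 25 and 39 counts in naïve and 17 and 33 in primed, a log2 fold change of -0.66 ± 0.35 (edgeR adjusted p = 0.0923). It was called without naïve replicate 1 (-0.94, edgeR adjusted p = 0.0286) and with counts summed over transcripts (-0.83, edgeR adjusted p = 0.0462). RSAD2, or viperin, which makes a chain-terminating nucleotide, had no count in naïve and 6 and 3 in primed. Its primed mean was at least 1.22-fold higher than the floor of 3 counts per naïve library. That span overlaps CMPK2 on the opposite strand, which had 5 and 2 counts in primed. The canonical RSAD2 transcript, which overlaps no other gene, had 1 and 1 counts in primed, so the bound does not hold on it. IFI44 had 3 counts in primed replicate 2 alone, IFI44L had 1 count in primed replicate 1 and SAMD9 had 1 in primed replicate 2. A difference in these 3 genes was not detectable at this depth.

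**Figure D4:**
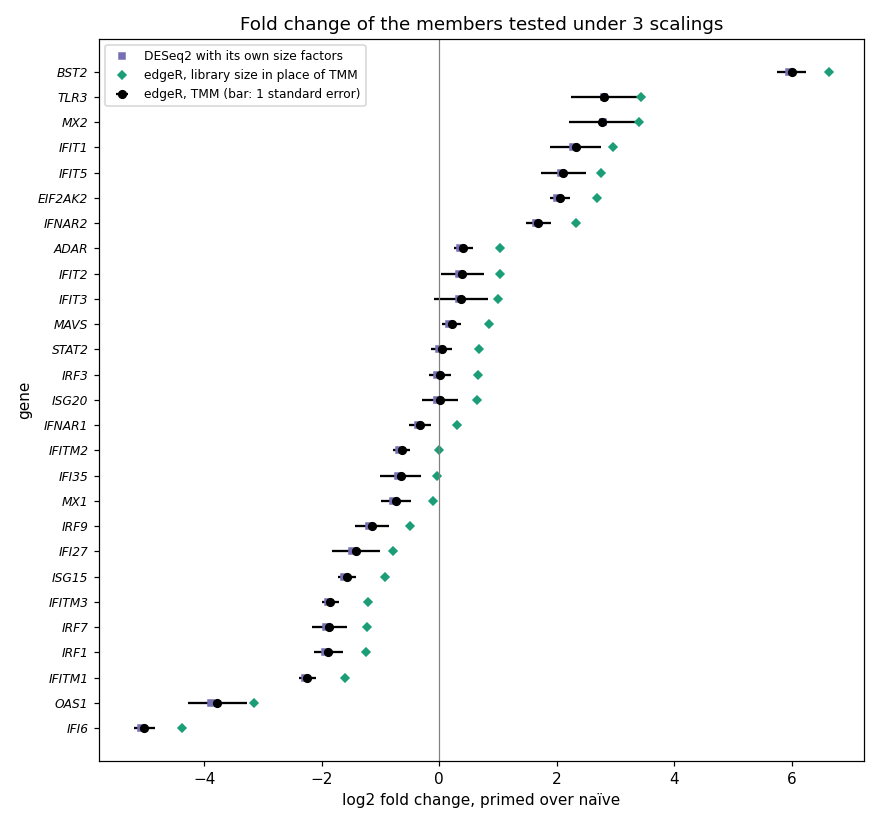
Log2 fold change, primed over naïve, of the 27 members tested, sorted by value, with edgeR and TMM (black, bar of 1 standard error), DESeq2 with its own size factors (squares) and edgeR with library size scaling (diamonds). Library size scaling moves every member to the right, which turns the sign of IFNAR1 and brings IFITM2 to 0.0011.

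The other genes of the pathway were taken from lists of 126 genes that are no members. Of these, 84 were tested, 28 were higher, 31 were lower and 25 were not called. Their median log2 fold change was -0.12 where that of all genes tested was 0.08. Of all genes tested, 37.4% were higher and 32.6% lower, so these counts were close to what the whole table gives. The counts of each list below are to be read against the same shares. Of the 28 higher genes, 11 had passed the count minimum through the primed libraries alone, as had 3 of the 31 lower genes through the naïve ones. None of the 21 interferon ligand genes had enough counts to test, and the highest count in a library was 7, for IFNK in naïve replicate 2.

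Among 14 other receptors, JAK-STAT members and regulators, 1 was higher, 7 were lower and 6 were not called. IFNLR1, the specific chain of the type III interferon receptor, had 28 and 37 counts in naïve and 144 and 145 in primed (log2 fold change 1.84 ± 0.26, edgeR adjusted p = 3.43e-08). Both chains of the interferon-gamma receptor were lower in primed hESCs. IFNGR1 had 448 and 559 counts in naïve and 197 and 154 in primed (-1.82 ± 0.18, edgeR adjusted p = 2.2e-12). IFNGR2 had 1334 and 1262 counts in naïve and 419 and 436 in primed (-1.91 ± 0.16, edgeR adjusted p = 1.25e-14), but 0.30 on a transcript that overlaps no other gene. SOCS3, a feedback inhibitor of JAK signalling, had 67 and 186 counts in naïve and 28 and 27 in primed (-2.48 ± 0.31, edgeR adjusted p = 3.18e-09). Its naïve replicates lay apart, and the value was -3.05 without naïve replicate 1 and -1.72 without naïve replicate 2.

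Among 30 other sensors, adaptors and factors, 10 were higher, 4 were lower, 9 were not called and 7 were not tested. RIGI, the cytoplasmic sensor of short double-stranded RNA, had 20 and 29 counts in naïve and 112 and 130 in primed (log2 fold change 1.99 ± 0.28, edgeR adjusted p = 3.67e-08). TRIM25, a ubiquitin ligase of the RIGI pathway, had 59 and 102 counts in naïve and 273 and 301 in primed. IRF2 had 64 and 75 against 176 and 173. The DNA sensors IFI16 and CGAS were lower in primed hESCs, whereas AIM2, a further DNA sensor named after its values were seen, was higher (3 and 6 counts in naïve, 33 and 42 in primed) and had passed the count minimum through the primed libraries alone. IFI16 had 78 and 122 counts in naïve and 26 and 20 in primed (-2.41 ± 0.30, edgeR adjusted p = 1.43e-09), and CGAS 258 and 295 against 100 and 119 (-1.64 ± 0.19, edgeR adjusted p = 4.03e-10). CGAS was not called on a transcript that overlaps no other gene (-0.44, edgeR adjusted p = 0.0791). RNF135, a further ligase of this pathway, had a log2 fold change of -0.68 that was lost in 4 alternatives. Chosen after their values were seen, DHX58, the third RIGI-like receptor, had 3 and 3 counts in naïve and 41 and 41 in primed. IKBKE, a kinase that activates IRF3, likewise chosen, had no count in naïve and 56 and 63 in primed. Its primed mean was at least 16.0-fold higher than the floor of 3 counts per naïve library. Both DHX58 and IKBKE had passed the count minimum through the primed libraries alone, so they had to differ.

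Among 45 other interferon-stimulated genes, 13 were higher, 14 were lower, 6 were not called and 12 were not tested. UBE2L6, the conjugating enzyme that attaches ISG15 to proteins, had 35 and 32 counts in naïve and 551 and 528 in primed (log2 fold change 3.70 ± 0.21, edgeR adjusted p = 1.74e-19), opposite in direction to ISG15. IFI27L2, a relative of IFI27 and IFI6, had 11 and 11 counts in naïve and 344 and 395 in primed. PARP14 had 25 and 29 against 208 and 199. LY6E, a surface protein that restricts coronavirus entry, had 3860 and 3791 counts in naïve and 598 and 607 in primed (-2.98 ± 0.16, edgeR adjusted p = 4.45e-21). TRIM38 had 209 and 196 counts in naïve and 41 and 37 in primed, and NMI 228 and 244 against 68 and 76, both lower in primed hESCs. Of 16 restriction factors outside the interferon-stimulated list, 4 were higher, 6 were lower, 4 were not called and 2 were not tested. SAMHD1, which depletes nucleotides needed for reverse transcription, had 1152 and 1259 counts in naïve and 637 and 694 in primed (-1.17 ± 0.15, edgeR adjusted p = 3.98e-09). TRIM11 and MARCHF8 were lower as well (log2 fold changes of -1.241 and -1.004), and the call of MARCHF8 was lost under library size scaling (-0.37, edgeR adjusted p = 0.0989).

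**Figure D5:**
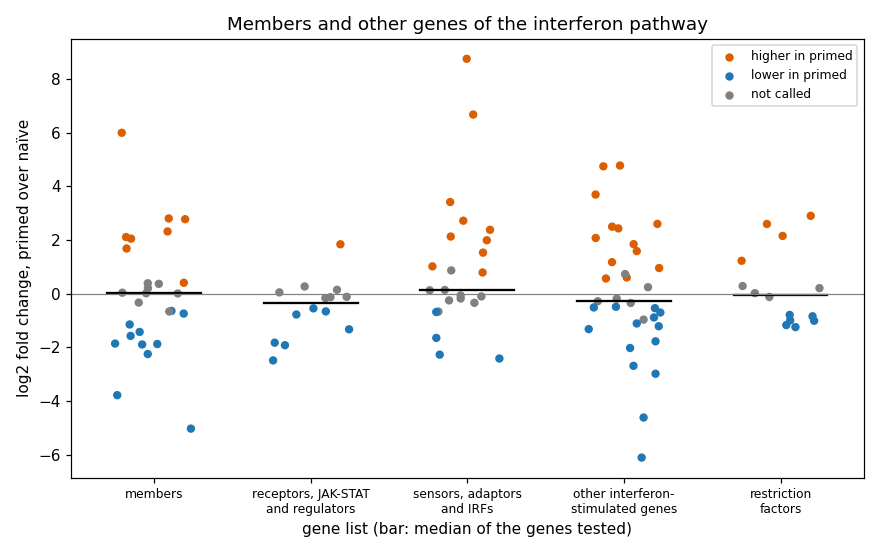
Log2 fold change, primed over naïve, of the members tested and of the tested genes in 4 other pathway lists, with 1 point per gene coloured by call and a bar at the median of each list. Every list holds called genes in both directions, and the medians lie between -0.35 (receptors and JAK-STAT) and 0.14 (sensors and adaptors).

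Across the members and the named pathway genes, 14 of the 19 called members kept call and direction in every alternative that tested them. The 7 higher were IFNAR2, TLR3, EIF2AK2, IFIT1, IFIT5, MX2 and BST2, and the 7 lower were IFITM1, IFITM3, IRF1, IRF7, OAS1, ISG15 and IFI6. For TLR3, MX2 and OAS1 the count minimum had fixed the direction, and the fit without either library of the state that carried them could not test them, so their place among the 14 is no sign of stability. IFNAR2, IFIT1, IFITM1, IFITM3, IRF1, OAS1 and IFI6 had no tested transcript free of overlap. Whether they keep the call without reads shared with other genes was therefore not tested. The other 5 called members (IFITM2, IRF9, ADAR, IFI27 and MX1) lost the call in at least 1 alternative.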

How the data were processed

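Long-read Nanopore cDNA libraries of 2 naïve and 2 primed H1 hESC samples were used. The authors aligned reads with minimap2 (spliced mode, GRCh38) and deposited raw counts per transcript made with featureCounts 2.0.0 on an Ensembl annotation; per the file headers, whole transcript spans including introns were counted without strand, with overlapping and multiply aligned reads counted at each feature, so counts are alignments and not molecules. Precision is limited by these counts and by 2 libraries per state.

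Transcripts were matched by identifier to GENCODE 44 (242542 of 244825; 97.9% with the same coordinates; 2283 unmatched, with 1% of counts, left out). A gene took the count of its transcript with the largest mean count. The test needed 10 or more counts in 2 or more libraries and used edgeR 4.0.16 (R 4.3.3; TMM, quasi-likelihood, two-sided, Benjamini-Hochberg over all genes tested, adjusted p under 0.05). Isoform usage was tested by diffSpliceDGE with a change in isoform fraction beyond 0.1. On simulated data, edgeR recovered 100% of 200 genes changed 4-fold among 26861. The isoform test recovered 96.5% of 200 isoforms changed 4-fold among 151950, by adjusted p alone, without the threshold on the fraction. The changed genes and isoforms had an expected mean count of at least 50, and counts were drawn independently. The IFIT2 isoforms had lower counts and shared reads, so the simulation does not cover them. Replicates of a state differed by more than sampling noise (chi-square per degree of freedom 13.2 in naïve and 8.62 in primed). Likeness between genes came from blastn 2.17.0 (at least 94% identity over 300 bases) and overlaps from bedtools 2.31.1.

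All members are named. Of each pathway list, up to 3 genes per direction with the widest change were named, among those called with a mean count of at least 50 and no overlap between states; 3 more are marked as chosen after their values were seen. The members and lists were chosen with earlier results of these data known. Alternatives were DESeq2 1.42.0, library size scaling, a replicate block, other count minimums, other gene values and leaving out each library. With a library left out, the lone sample of its state is assumed to vary like the other group.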

Additional observations from a re-analysis of the deposited data

How the results depend on the processing

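Of 521 values recomputed for members and named pathway genes, 481 kept direction and call, 17 lost the call, 8 gained one and 15 changed sign. The number of members called moved from 19 to 11 when transcripts had to overlap no other gene, with 4 lower in place of 11 and 9 past 2-fold in place of 16; fewer genes have such a transcript. A minimum of 50 counts, which tests fewer genes, left 4 higher in place of 8 and 10 past 2-fold. Library size scaling gave 13 higher and 7 lower members, and 44 higher and 17 lower pathway genes in place of 28 and 31. Leaving out 1 library gave between 15 and 18 members called, between 6 and 8 higher, between 9 and 11 lower, between 13 and 15 past 2-fold, between 17 and 27 pathway genes higher and between 24 and 29 lower; the 17 came without primed replicate 2. For member isoforms, 5 calls became 0 without any 1 library, 0 at 50 counts (IFIT2 is not tested there) and 0 with fractions without length, 2 with identical isoforms collapsed, 3 at a threshold of 0.2 and 11 with no threshold on the fraction.

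Signs changed under library size scaling for IFITM2 (0.0011) and IFNAR1 (0.31). Under DESeq2 they changed for STAT2 (-0.01), IRF3 (-0.03) and ISG20 (-0.04). On the canonical transcript they changed for IFIT2 (-2.58), IFIT3 (-0.62) and ISG20 (-0.04), and with summed counts for IFIT2 (-0.21) and IFIT3 (-0.49). Without naïve replicate 2 they changed for STAT2 (-0.17), IRF3 (-0.04) and ISG20 (-0.20), and without naïve replicate 1 for IRF3 (-0.04). On transcripts free of overlap, IFNGR2 turned to 0.30. The cause of these changes was not tested. With 1 library left out, STAT2 ranged from -0.17 to 0.32, IRF3 from -0.04 to 0.23 and ISG20 from -0.20 to 0.28. No count of members moved by over 1.5 times under DESeq2 (18 called). Same-numbered replicates share only a number (correlation of their deviations 0.0407 over 2 pairs); with the replicate block 19 members, 8 higher and 11 lower, 16 past 2-fold, 28 and 32 pathway genes and 5 isoforms were called.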
